A study of Mus musculus with 8 samples.

Results

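The genes described here carry out fatty acid oxidation and ketone body metabolism in the mouse liver. The list holds 33 members, and each was found through the probe sets whose single gene symbol in the platform annotation was that member. Of these members 32 were measured on both array types, by 53 probe sets among the 18194 named genes of the tumour array and by 48 probe sets among the 12394 named genes of the array used for the virus-infected livers. Acsl1, which activates long-chain fatty acids to their CoA esters, had no single-symbol probe set on either array and is not analysed here. The list follows the pathway, and it was proposed with earlier results of these data known.

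All 8 arrays came from p53-/- mice on a C57BL/6J background. Hepatocellular carcinomas of 12 to 15 month old mTERC- mice, which lack the telomerase RNA, were compared with those of mTERC+ mice of the same ages, and every tumour-bearing mouse also carried the HBs transgene. Each of the 3 arrays in a tumour group held 1 tumour of a separate mouse. In the other experiment, liver RNA was taken 48 hours after an intravenous adenovirus carrying TRF2DBDM, a construct of the telomere protein TRF2, or an adenovirus carrying GFP. RNA of 3 mice was pooled onto 1 array for each virus, so that pair has no replicates. No p53-positive array was among the groups used here, and no array of liver that was both uninfected and free of tumour.

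Fatty acids enter mitochondria through the carnitine shuttle, in which Cpt1a makes the acylcarnitine, Slc25a20 carries it across the inner membrane and Cpt2 returns it to CoA. Each round of beta-oxidation then uses an acyl-CoA dehydrogenase, a hydratase, a hydroxyacyl-CoA dehydrogenase and a thiolase, and in the fasting liver the acetyl-CoA feeds ketone body synthesis. Peroxisomes shorten very long and branched fatty acids, and many genes of both organelles are targets of the nuclear receptor PPAR-alpha, which binds DNA with RXR at repeats of AGGTCA.

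Promoter windows from 250 bases before to 50 bases after the transcription start were read from RefSeq (GRCm38.p6). They were available for 28 of the 32 measured members, in 29 windows, and were set against all 32851 windows of that table. Matches were counted on both strands. The element AGGTCA was in the windows of 6 members (Cpt1a, Acadvl, Acadm, Phyh, Fabp1 and Plin2) and in 16.3% of all windows. The exact repeat of it with 1 free base between the copies, AGGTCANAGGTCA, was in 0 member windows and in 0.0396% of all windows. A looser form, AGGNCANAGGNCA, was in 0.381% of all windows, and Fabp1 was the only member with it. AGGTCA is contained in the exact repeat and may lie in the looser one, as it does in Fabp1. GGGCGG, the GC box, was in 21 members and 35.7% of all windows, CCAAT was in 13 members and 37.4%, and TATAAA was in 2 members, Fabp1 and Fgf21, and 13.6%. These matches describe the letters of the windows and do not show binding.

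The windows below are those of Fabp1, which held the looser repeat, of Hadhb, which shares its start region with Hadha, and of 4 of the members that were at least 2-fold higher in TRF2DBDM liver. Each is printed 5′ to 3′ along the gene's own strand, and capitals mark the motifs named for it below, on either strand. In Fabp1 the looser repeat begins 67 bases before the start and the TATAAA 30 bases before it. The capitals in Phyh and Acadm mark AGGTCA, those in Hadhb mark GGGCGG, and those in Hacl1 and Crot mark CCAAT and GGGCGG. In Phyh the element begins 36 bases after the start, and in Acadm 249 bases before it.
Fabp1 (chr6:71199629-71199928, plus strand): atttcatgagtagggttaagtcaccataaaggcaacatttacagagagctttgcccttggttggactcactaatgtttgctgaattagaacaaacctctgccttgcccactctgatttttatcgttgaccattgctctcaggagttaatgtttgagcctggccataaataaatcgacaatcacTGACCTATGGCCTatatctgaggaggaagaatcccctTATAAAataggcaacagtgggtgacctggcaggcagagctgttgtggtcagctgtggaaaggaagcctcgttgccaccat
Hadhb (chr5:30155003-30155302, plus strand): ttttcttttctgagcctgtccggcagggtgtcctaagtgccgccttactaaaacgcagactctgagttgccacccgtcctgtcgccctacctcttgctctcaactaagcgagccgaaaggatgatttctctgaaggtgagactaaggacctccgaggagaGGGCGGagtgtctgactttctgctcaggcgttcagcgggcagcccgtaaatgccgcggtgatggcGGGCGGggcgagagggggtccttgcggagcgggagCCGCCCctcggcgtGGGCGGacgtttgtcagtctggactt
Phyh (chr2:4918746-4919045, plus strand): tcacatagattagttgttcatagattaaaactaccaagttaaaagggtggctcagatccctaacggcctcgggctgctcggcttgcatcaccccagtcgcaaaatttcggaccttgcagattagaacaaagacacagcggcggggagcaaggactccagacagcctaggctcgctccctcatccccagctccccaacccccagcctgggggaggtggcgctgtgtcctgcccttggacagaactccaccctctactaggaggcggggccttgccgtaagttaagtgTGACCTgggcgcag
Hacl1 (chr14:31640916-31641215, minus strand): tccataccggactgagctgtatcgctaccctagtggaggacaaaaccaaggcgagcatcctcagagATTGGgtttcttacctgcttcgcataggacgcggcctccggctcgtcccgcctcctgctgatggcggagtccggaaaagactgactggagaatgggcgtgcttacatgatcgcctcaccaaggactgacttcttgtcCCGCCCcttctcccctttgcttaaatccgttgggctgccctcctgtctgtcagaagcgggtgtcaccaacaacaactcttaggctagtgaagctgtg
Crot (chr5:8997097-8997396, minus strand): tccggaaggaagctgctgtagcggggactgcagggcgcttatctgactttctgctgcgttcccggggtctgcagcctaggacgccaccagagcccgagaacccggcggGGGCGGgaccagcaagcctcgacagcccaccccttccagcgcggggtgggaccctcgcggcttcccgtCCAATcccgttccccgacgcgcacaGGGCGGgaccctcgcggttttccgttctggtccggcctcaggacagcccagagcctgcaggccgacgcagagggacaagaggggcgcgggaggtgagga
Acadm (chr3:153944594-153944893, minus strand): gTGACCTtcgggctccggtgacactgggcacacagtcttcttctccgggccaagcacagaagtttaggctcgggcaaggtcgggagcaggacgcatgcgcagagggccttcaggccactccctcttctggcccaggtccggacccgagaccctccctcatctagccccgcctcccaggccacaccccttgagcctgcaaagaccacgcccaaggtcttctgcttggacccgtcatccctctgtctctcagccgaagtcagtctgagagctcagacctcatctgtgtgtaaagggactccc

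Hadha and Hadhb, which encode the subunits of the mitochondrial trifunctional protein, run in opposite directions from starts 272 bases apart, and their windows share 228 bases. Both of their windows held GGGCGG. The overlap also means that Hadha and Hadhb count as separate members for much of the same sequence in the motif counts.

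The deposited value of a probe set is its MAS5 signal, a linear brightness, and differences are on the scale of log2(signal + 32), which understates the change of dim genes. Signals of different probe sets cannot be compared with each other, so each gene is compared only with itself across arrays. With 3 arrays a group, precision was set by their number and not by a count of molecules. The label of the samples names hepatocytes, and the 11 tested hepatocyte markers had signals of at least 71.5 in every tumour, with a summed signal of 110309 to 165821 in mTERC- tumours and 136555 to 164768 in mTERC+ tumours. RNA was from whole tumour or liver, so fewer cells of a type and less RNA per cell cannot be told apart.

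One array stood apart from the others. On mTERC- tumour 2 the ratio of the 3′ to the 5′ control probe sets was 13.8 for Gapdh and 2.28 for Actb, while the other tumours lay between 0.983 and 1.18 for Gapdh and between 1.30 and 1.64 for Actb. Its mean correlation with the other tumours was 0.788, against 0.835 to 0.847 for the others, and its median signal was 75.1, against 54.5 to 59.4. The 18S control was dim on mTERC- tumour 2 (319) and mTERC- tumour 3 (349), while each of the other 4 tumour arrays read at least 11010.

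In the comparison of carcinomas without and with the telomerase RNA, no member of the pathway passed the test. Of 11980 genes tested in limma, 1 passed at an adjusted p below 0.05 (0.00835% of genes), and this was the neutrophil gene S100a8, which is named because it was the only call. Of the 32 tested members 0 passed in limma, 1 had an unadjusted p below 0.05, and 604 of all genes did. The mean was higher in mTERC- tumours for 14 members and lower for 18, with a median log2 difference of -0.06 (all genes 0.02). For 28 of the 32 members the fitted log2 difference was between -0.44 and 0.41, while their standard errors and those of the other members ran from 0.30 to 0.66. By the brightest probe set of each gene, the groups did not overlap for 2 members, Pdk4 and Acaa1b, beside 10.1% of all genes tested.

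**Figure D1:**
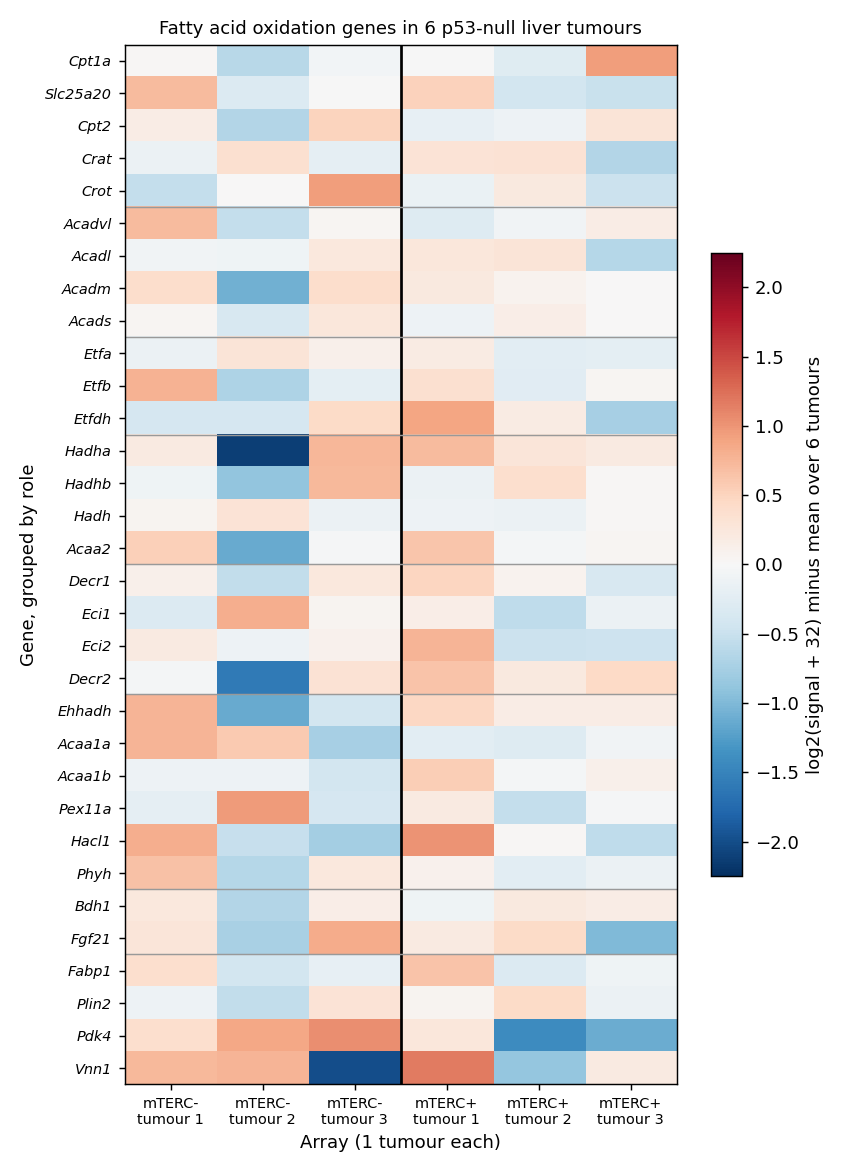
Level of each of the 32 measured members in each tumour, as log2(signal + 32) minus the gene's mean over the 6 tumours (colour), with genes in rows grouped by role, mTERC- tumours in the 3 columns left of the black line and mTERC+ tumours in the 3 columns right of it. Blue cells are most frequent in mTERC- tumour 2, which had the lowest value for 16 members, and only the rows of Pdk4 and Acaa1b have the groups apart.

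Pdk4, the kinase that shuts off pyruvate dehydrogenase when fat is burned, had a signal of 96.6, 147.7 and 171.7 in mTERC- tumours 1, 2 and 3, against 86, 5 and 13.5 in mTERC+ tumours 1, 2 and 3. Every mTERC- tumour was above every mTERC+ tumour, but mTERC+ tumour 1 was close to mTERC- tumour 1. The log2 difference was 1.52 (SE 0.57), which did not pass (adjusted p = 0.953 in limma). This gene was dim, and in mTERC+ tumours 2 and 3 it lay below the array medians of 59.4 and 57.9. Pdk4 passed the level filter only through the mTERC- tumours, where it was high, so its count among the members without overlap is no support. The size of its difference followed the pseudocount, at 2.79 with 1 and 1.11 with 64.

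Acaa1b, a peroxisomal thiolase, had 6584.4, 6566.9 and 5340.2 in mTERC- tumours, against 10424, 6920.5 and 7740.7 in mTERC+ tumours 1, 2 and 3. The mTERC- values were all lower, and the gap between the groups was narrow beside the spread of the mTERC+ tumours. Its log2 difference was -0.42 (SE 0.31), with an adjusted p of 0.953 in limma. Its near-identical paralog Acaa1a had 572.7, 500.1 and 180 in mTERC- tumours, against 269.1, 257.8 and 304.6 in mTERC+ tumours, so the groups overlapped. Probe sets of these paralogs may bind both transcripts, and their assignment is uncertain.

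On their brightest probe sets, the members of the carnitine shuttle did not separate the groups. Cpt1a, the rate-controlling enzyme of entry, had 1488.5, 942.1 and 1395.2 in mTERC- tumours, against 1454.2, 1200.7 and 2845.9 in mTERC+ tumours. mTERC+ tumour 3 was the highest, the groups overlapped, and the log2 difference was -0.44 (SE 0.38). Slc25a20 had a log2 difference of 0.26, Cpt2 of 0.00, Crat, which moves acetyl groups onto carnitine, of 0.02, and Crot, which makes medium-chain acylcarnitines in peroxisomes, of 0.28. In this group 3 of 5 genes averaged higher in mTERC- tumours, and 0 passed. A dimmer probe set of Cpt2 had 77, 137 and 90.5 in mTERC- tumours, against 51.3, 36.5 and 57.6 in mTERC+ tumours. The groups did not overlap there, and its mTERC+ values lay below the array medians of 57.2, 59.4 and 57.9.

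The acyl-CoA dehydrogenases, which open each round of oxidation and differ in the chain length they prefer, varied little between the groups. The log2 difference was 0.14 for Acadvl, 0.05 for Acadl, -0.20 for Acadm and -0.04 for Acads, the enzymes for very long, long, medium and short chains in that order. Acadm had 3400.4, 1200 and 3385.8 in mTERC- tumours, against 2999.6, 2718.1 and 2608.7 in mTERC+ tumours. The mTERC- tumours thus held both the highest and the lowest values, and without mTERC- tumour 2 the log2 difference of Acadm was 0.29. Etfa and Etfb, the subunits of the flavoprotein that takes the electrons, had log2 differences of 0.18 and -0.09, and Etfdh, which passes the electrons to ubiquinone, had -0.21.

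Genes of the later mitochondrial steps were low on 1 array. Hadha had 2302.5, 433.7 and 3360.9 in mTERC- tumours, against 3288.4, 2433.5 and 2301.1 in mTERC+ tumours. Hadhb had 2196.1, 1252.5 and 3896.6 in mTERC- tumours, against 2139.9, 3053.2 and 2390.3 in mTERC+ tumours. Acaa2, the mitochondrial thiolase, had 9719.3, 3022.8 and 6578.9 in mTERC- tumours, against 10332, 6516.2 and 6939.2 in mTERC+ tumours. All 3 genes had their lowest value in mTERC- tumour 2, where Hadha was at 17.8% of the median of the other 5 tumours and Hadhb at 52.4%. The log2 difference between the groups was -0.79 for Hadha (SE 0.55), -0.18 for Hadhb and -0.42 for Acaa2. Without mTERC- tumour 2 these were 0.07, 0.22 and 0.04.

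The probe sets of a gene did not always follow each other on that array. The 3 probe sets of Acaa2 stood at 43.6%, 21.6% and 5.21% of the median of the other tumours. Hadh, which oxidises medium- and short-chain hydroxyacyl-CoA, was highest in mTERC- tumour 2 by its brightest probe set, at 15124.2, while another of its probe sets was lowest there, at 62.1% of the median of the other tumours. Over the 49 member probe sets above the level filter, mTERC- tumour 2 was lowest in 23 and highest in 7.

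The most negative log2 difference of the members was that of an enzyme for unsaturated fatty acids. Decr2, the peroxisomal dienoyl-CoA reductase, had 617.8, 188.8 and 798.1 in mTERC- tumours, against 1008.2, 741.4 and 878.9 in mTERC+ tumours. mTERC- tumour 2 was far below the other 5, and mTERC- tumour 3 lay within the mTERC+ range. The log2 difference was -0.87 (SE 0.45, adjusted p = 0.953 in limma), and it was -0.30 without mTERC- tumour 2. Decr1, the mitochondrial counterpart, had -0.14, the isomerase Eci2 had 0.12 and the mitochondrial isomerase Eci1 had 0.37. Eci1 was highest on that array, at 2146.1, 4686.8 and 2764.6 in mTERC- tumours, against 2939, 1772.6 and 2434.3 in mTERC+ tumours.

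Among the other peroxisomal members, with Acaa1a and Acaa1b counted, 3 of 6 averaged higher in mTERC- tumours. Ehhadh, the bifunctional enzyme of peroxisomal beta-oxidation, had 978.2, 240.6 and 417.6 in mTERC- tumours, against 795.5, 635.8 and 637.9 in mTERC+ tumours. The mTERC- tumours spanned the whole mTERC+ range, and the log2 difference was -0.53 (SE 0.44). Hacl1, the lyase of alpha-oxidation, had a log2 difference of -0.31, Phyh, the hydroxylase that starts the breakdown of phytanic acid, of 0.18, and Pex11a, a membrane protein of peroxisome division, of 0.25.

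Ketone body and fuel-choice genes overlapped between the groups, apart from Pdk4. Bdh1, which interconverts the ketone bodies, had a log2 difference of -0.19. Fgf21, the fasting hormone of the liver, had 480.2, 225.4 and 723.7 in mTERC- tumours, against 458.2, 542.6 and 181.1 in mTERC+ tumours. Both groups had a low tumour, and the log2 difference was 0.24 (SE 0.47). Fabp1, which binds fatty acids in the hepatocyte cytosol, had -0.16, and Plin2, a coat protein of lipid droplets, had -0.24. Vnn1, a pantetheinase, varied most on the log2 scale by its brightest probe set. That probe set had 604.5, 615.8 and 64.4 in mTERC- tumours, against 832.2, 177.3 and 411.1 in mTERC+ tumours. Both groups held high and low tumours there, and its standard error of 0.66 was the largest of the members. The other probe set of Vnn1 had a narrower range, at 416.4, 316.3 and 153.6 in mTERC- tumours, against 358.2, 152.2 and 290.8 in mTERC+ tumours.

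**Figure D2:**
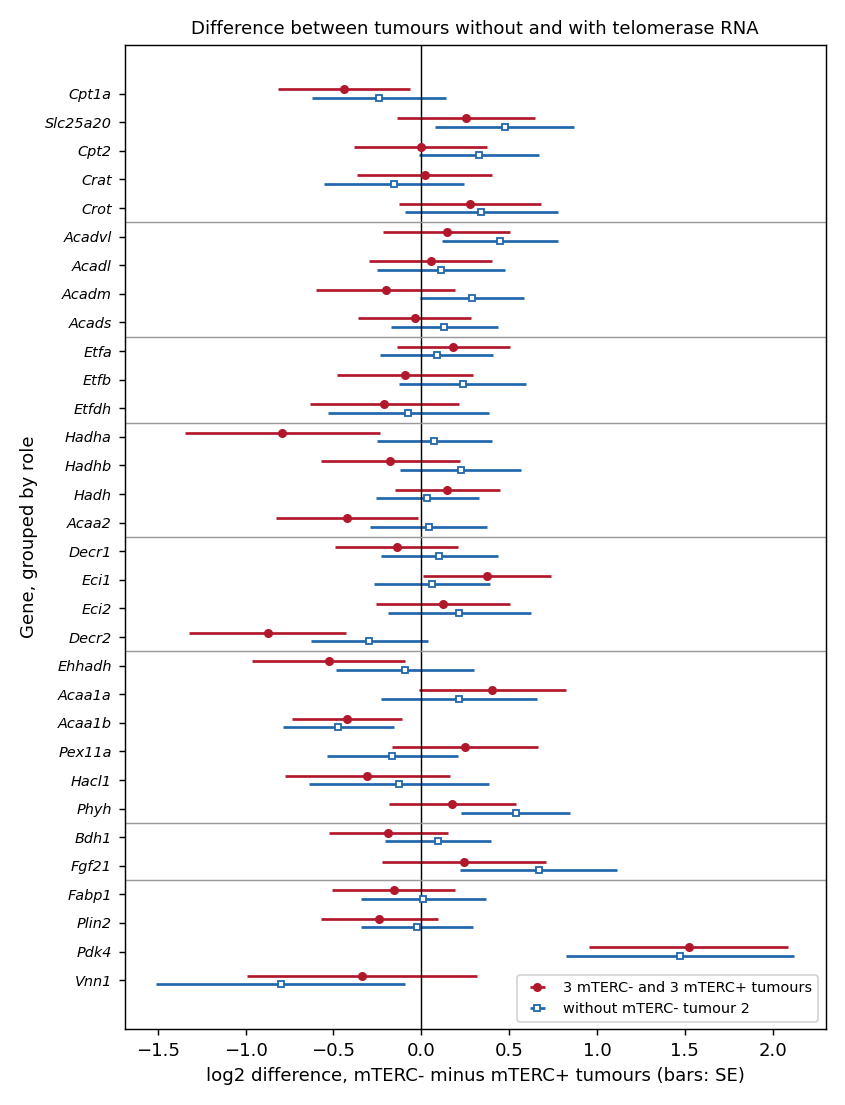
Fitted log2 difference of each member, mTERC- minus mTERC+ tumours, with bars of 1 SE, from all 6 tumours (filled circles) and without mTERC- tumour 2 (open squares), with genes in rows grouped by role. Most bars cross 0, Pdk4 lies farthest to the right at 1.52 and 1.47, and Hadha and Decr2 sit at -0.79 and -0.87 with all tumours and at 0.07 and -0.30 without mTERC- tumour 2.

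mTERC- tumour 2 was the lowest tumour for 16 of the 32 members and for 22.3% of all genes, and it was the highest for 5 members and for 27.2% of all genes. The mean of the members' deviations from their own averages, on the log2 scale, was 0.21, -0.34 and 0.06 in mTERC- tumours 1, 2 and 3, against 0.29, -0.09 and -0.14 in mTERC+ tumours. mTERC- tumours 1 and 3 thus lay within the mTERC+ range and mTERC- tumour 2 below it. Without mTERC- tumour 2, 12 of the 32 differences changed sign, 22 members averaged higher in mTERC- tumours and 10 lower, and the median log2 difference was 0.09. The lowest adjusted p of a member was then 0.986 in limma. The part of the high 3′ to 5′ ratio of this array in these values was not tested.

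The median SD of a member over the 6 tumours was 0.51 on the log2 scale (all genes 0.54), and without mTERC- tumour 2 it was 0.37 (all genes 0.48). By the brightest probe set of each gene, Hadh, with an SD of 0.17, Acads, with 0.22, and Etfa, with 0.23, varied least. Vnn1, with 1.20, Hadha, with 1.07, and Pdk4, with 1.03, varied most by the same measure. Over the 6 tumours Hadha and Hadhb, which share their start region, had a Pearson r of 0.83, and without mTERC- tumour 2 it was 0.38. The points of this correlation share array, scaling and RNA quality, so it is a description only.

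Genes of the same pathway outside the list did not pass either. Of 49 tested, 0 passed in limma, 4 had an unadjusted p below 0.05, and 17 averaged higher and 32 lower in mTERC- tumours, with a median log2 difference of -0.31. Slc27a5, which activates bile acids and very long fatty acids, had 1891, 1548.2 and 1243.9 in mTERC- tumours, against 3573.7, 2279.9 and 3800.4 in mTERC+ tumours. The groups did not overlap, and the log2 difference was -1.01 (SE 0.34) with an adjusted p of 0.906 in limma. Acacb, which makes the malonyl-CoA that inhibits Cpt1a, had a log2 difference of -1.34, Acad10 of -0.87 and Bdh2 of -1.27. The groups of Acacb overlapped, at 57.6, 259.9 and 7.1 in mTERC- tumours, against 212.4, 189.1 and 273.6 in mTERC+ tumours. Bdh2 had 132.6, 11.8 and 145.7 in mTERC- tumours, against 459.1, 155.1 and 164.4 in mTERC+ tumours. Its lowest value was thus on mTERC- tumour 2, below that array's median of 75.1. Of 15 tested regulators 4 averaged higher (median -0.12, 0 at an unadjusted p below 0.05), and of 19 other known targets of PPAR-alpha 12 did (median 0.16, 2 at an unadjusted p below 0.05), with 0 passing in limma. Among these targets Fabp4, a fatty acid binding protein, had a log2 difference of 1.32, and Retsat, a retinol saturase, had -1.26. On mTERC- tumour 2 Fabp4 was highest, at 2418.5, and Retsat lowest, at 295.5. Among the regulators the smallest p belonged to Esrra, a nuclear receptor, at -1.01. Esrra was dim, at 37.7 and 26.4 in mTERC- tumours 2 and 3, below the array medians of 75.1 and 54.5. The groups of Fabp4, Retsat and Esrra overlapped.

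Markers of several other cell types differed between the group means. All 8 tested neutrophil markers averaged higher in mTERC- tumours (1 passed in limma, median log2 difference 1.78, summed signal 30152 to 55376 in mTERC- tumours and 20457 to 30325 in mTERC+ tumours). All 12 macrophage markers averaged lower (0 passed, median -1.10, summed signal 11699 to 19230 in mTERC- tumours and 10791 to 65143 in mTERC+ tumours). Of 9 endothelial markers 8 were lower (median -0.39). All 4 proliferation markers averaged higher (median 0.60), and all 4 were lowest in mTERC+ tumour 3. Their summed signal was 658.5, 777.7 and 1364.3 in mTERC- tumours 1, 2 and 3, against 824.8, 993.9 and 141.8 in mTERC+ tumours, so the groups overlapped. The 10 stellate and fibroblast markers were split, 6 higher and 4 lower (median 0.06). The 11 hepatocyte markers had a median of -0.04. The part of these cell types in the members' values was not tested.

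In the livers infected with adenovirus, several peroxisomal genes, both subunits of the electron transfer flavoprotein and the medium-chain dehydrogenase gene had higher signals with TRF2DBDM than with GFP. Of the 32 members compared, 22 were higher and 10 lower in TRF2DBDM liver, and the median log2 ratio was 0.35 (all 7789 genes compared, 0.02). At least 2-fold higher were 8 members, beside 4.62% of all genes, and at least 2-fold lower were 0 members, beside 2.9% of all genes. Fgf21, 1 of the 8, was below the array median in GFP liver and was compared only because it was above it in TRF2DBDM liver, so its count is no support. Each value is 1 array of pooled RNA, so no test was made and no spread between mice is known.

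Members of alpha-oxidation had ratios above 3 on the (signal + 32) scale. Hacl1 had a signal of 743.9 in TRF2DBDM liver, against 217.6 in GFP liver, a ratio of 3.11. Phyh had 2016.2 in TRF2DBDM liver, against 637.6 in GFP liver, a ratio of 3.06. Both enzymes act on phytanic acid, a branched fatty acid that beta-oxidation cannot take directly.

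Other peroxisomal members were also higher with TRF2DBDM. Crot had 654.2 in TRF2DBDM liver, against 221.1 in GFP liver, a ratio of 2.71. Acaa1b had 2384.8 in TRF2DBDM liver, against 964.6 in GFP liver, a ratio of 2.43. Ehhadh, at 278 in TRF2DBDM liver and 168.7 in GFP liver, and Pex11a, at 617.1 and 455.8 in the same order, had ratios of 1.54 and 1.33. Acaa1a had discordant probe sets, with 179.3 in TRF2DBDM liver against 224.7 in GFP liver on the brighter and 128.5 against 59.5 on the other. Decr2 was lower, at 341.5 in TRF2DBDM liver and 487.7 in GFP liver. By site in the cell, a grouping made with the values known, 7 of 9 peroxisomal members were higher with a median log2 ratio of 0.63, and 12 of 19 mitochondrial members were higher with a median of 0.22.

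In mitochondria the ratios were uneven along the pathway. Among the electron carriers Etfa had 522.7 in TRF2DBDM liver, against 196.7 in GFP liver, a ratio of 2.43. Its partner Etfb had 7032 in TRF2DBDM liver, against 3395.5 in GFP liver, a ratio of 2.06. Etfdh, the next carrier, had 226.5 in TRF2DBDM liver, against 185.8 in GFP liver. All 3 carriers were thus higher, the flavoprotein subunits by at least 2-fold.

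Of the dehydrogenases Acadm was higher. It had 936.4 in TRF2DBDM liver, against 422.7 in GFP liver, a ratio of 2.13. Acadl had 467.3 in TRF2DBDM liver, against 702.4 in GFP liver, the lowest ratio of the list at 0.680. Acads, at 322.3 in TRF2DBDM liver and 424.5 in GFP liver, was lower too, and Acadvl had 996.2 and 1066.1 in the same order, a ratio of 0.936. The gene of the medium-chain enzyme was thus higher, those for long and short chains were lower, and that for very long chains was close to even on this pair of arrays.

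The entry step and the ketone body enzyme were close to even on their brightest probe sets. Cpt1a had 742.1 in TRF2DBDM liver, against 877.6 in GFP liver, a ratio of 0.851. Slc25a20 had a ratio of 0.955, Cpt2 of 1.07, Crat of 0.931 and Bdh1 of 0.904. All 5 ratios thus lay between 0.851 and 1.07. Dimmer probe sets did not all follow. In TRF2DBDM and GFP liver in that order, Slc25a20 had 339.6 and 248.6, Cpt2 80.2 and 48.8, and Bdh1 76 and 60.6. Crat had 29.1 and 35.9, and Cpt1a had 54.5 and 37.5 on 1 probe set and 27.9 and 41.3 on another.

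Downstream, the 4 members that complete the mitochondrial round were higher in TRF2DBDM liver on their brightest probe sets. The ratio was 1.17 for Hadha, 1.27 for Hadhb, 1.28 for Hadh and 1.76 for Acaa2. The probe sets of Acaa2 disagreed, since the others had 1300.3 in TRF2DBDM liver against 1040.9 in GFP liver, and 878.8 against 948.4 in the same order. The auxiliary enzymes Decr1, Eci1 and Eci2 had ratios of 1.40, 1.65 and 1.43. Each of these ratios was below 2.

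Fgf21 had 123.1 in TRF2DBDM liver, against 31.6 in GFP liver, a ratio of 2.44 on the (signal + 32) scale. The GFP value lay below that array's median signal of 46.1, so the size of the ratio depends on the pseudocount, with log2 ratios of 0.97 to 1.93 over the alternatives. Fabp1 had 6133.4 in TRF2DBDM liver, against 4014.2 in GFP liver, a ratio of 1.52. Plin2 was even, at 7061.8 in TRF2DBDM liver and 7094 in GFP liver, Pdk4 had a ratio of 1.09 and Vnn1 of 1.18.

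**Figure D3:**
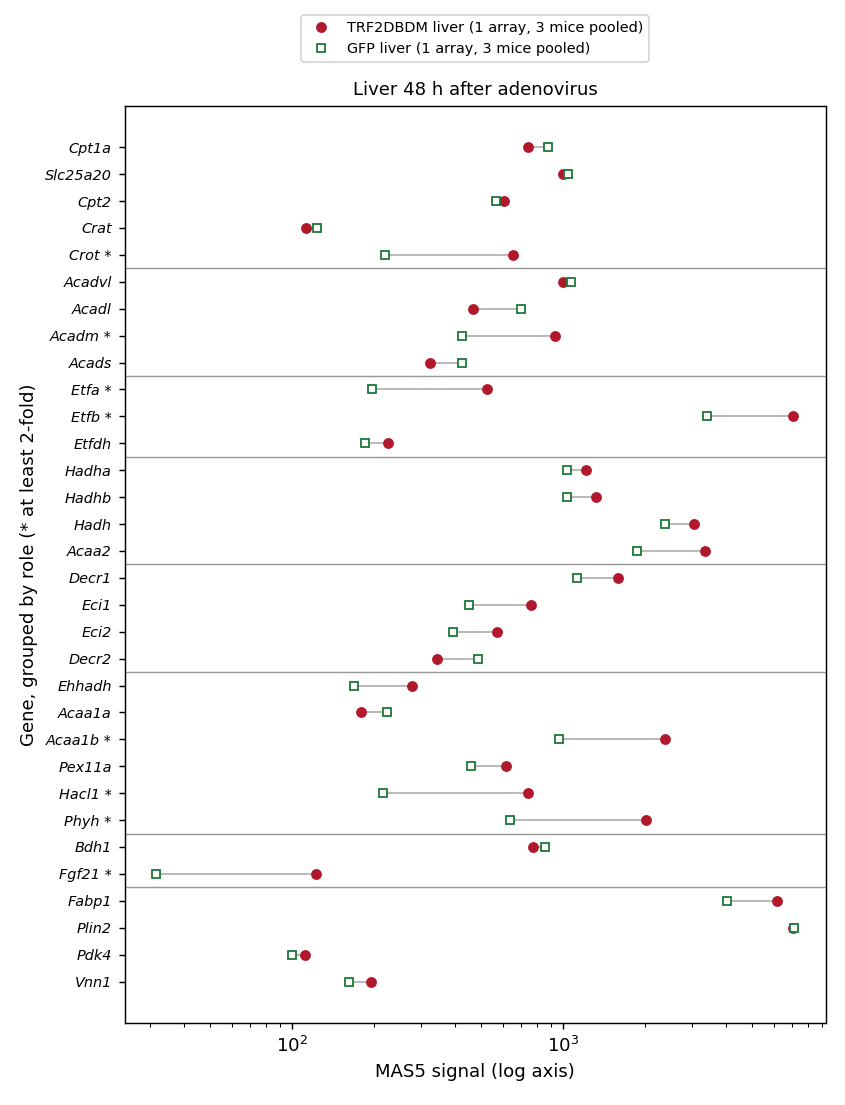
MAS5 signal (log axis) of each member in TRF2DBDM liver (filled circles) and GFP liver (open squares), 1 array of 3 pooled mice each, with genes in rows grouped by role and an asterisk on the 8 members at least 2-fold higher. The widest gaps are those of Hacl1, Phyh, Crot, Etfa, Acaa1b and Fgf21, while Plin2, Slc25a20 and Cpt2 nearly coincide.

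Most pathway genes outside the list were also higher with TRF2DBDM. Of 43 compared, 31 were higher in TRF2DBDM liver, with a median log2 ratio of 0.48. At least 2-fold higher were 9, beside 4.62% of all genes, and at least 2-fold lower was 1, beside 2.9%. Slc27a5 had 2213.3 in TRF2DBDM liver, against 488.1 in GFP liver, and Acsm1, a medium-chain acyl-CoA synthetase, had 872.1 against 185.6 in the same order. Pecr, a peroxisomal enoyl-CoA reductase, Nudt7, a peroxisomal CoA hydrolase, and Hibch, of valine breakdown, had ratios of 3.10, 2.76 and 2.60. Acsm3 had 152.1 in TRF2DBDM liver, against 23.7 in GFP liver, which is below that array's median, so no ratio is given. Acsm3 was compared only because it was above the median in TRF2DBDM liver, so its place among the 9 is no support.

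The lists of regulators and of other PPAR-alpha targets had medians nearer 0. Of 13 regulators 9 were higher (median log2 ratio 0.12), among them Lpin1, a coactivator of fat oxidation genes, with 228.7 in TRF2DBDM liver against 52.3 in GFP liver. Ppara itself had 121.4 in TRF2DBDM liver, against 53.4 in GFP liver, a ratio of 1.80. The GFP values of Lpin1 and Ppara lay close to that array's median of 46.1, so ratios of them depend on the pseudocount. Ppargc1a, 1 of the 9 higher, had 60.5 in TRF2DBDM liver, against 24.4 in GFP liver. It was compared only because it was above the median in TRF2DBDM liver, so its count is no support. Esrra, 1 of the 4 lower regulators, had 97.7 in TRF2DBDM liver, against 172.5 in GFP liver, a ratio of 0.634. Of 19 other known PPAR-alpha targets 9 were higher and 10 lower, with a median of -0.04. Cyp4a14, a fatty acid hydroxylase, had 472 in TRF2DBDM liver against 177.2 in GFP liver, while Acot1, an acyl-CoA thioesterase, had 97.4 against 209.6 in the same order.

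Hepatocyte markers were higher on the same array. All 10 compared were higher in TRF2DBDM liver, with a median log2 ratio of 0.75 and a summed signal of 50414 in TRF2DBDM liver and 31603 in GFP liver. Of 9 macrophage markers 7 were higher (median 1.16), 2 of 7 neutrophil markers were higher (median -0.57), and 0 of 4 proliferation markers were higher (median -0.29). The part of a shift in cell content in the members' ratios was not tested.

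The tumours and the virus-infected livers were set side by side on the 22690 probe sets that both array types hold. As scaled by the authors, all 6 tumours were above both livers for 18 members, beside 44.3% of all genes, and below both for 0 members, beside 2.61%. The trimmed mean over these shared probe sets was 273 to 309 on the tumour arrays and 150 on the livers, so the arrays were not on a common scale. After rescaling to a common trimmed mean the tumours were above for 6 members (all genes 14.7%) and below for 6 (all genes 19.3%), and after quantile normalization they were above for 7 (all genes 15.7%) and below for 5 (all genes 17.0%). Array type, tissue and virus differ between these sets, and the tumour-bearing mice carried the HBs transgene. The age of the virus-infected mice was not available here. The parts of these factors cannot be told apart, and no test was made.

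Above both livers under all 3 scalings were 6 members, Acads, Etfa, Etfdh, Hadh, Eci1 and Acaa1b, beside 13.7% of all genes. These 6 of 32 members are a share near that of all genes. Acads had rescaled signals of 1482 to 2091 in the tumours, against 561 in TRF2DBDM liver and 739 in GFP liver. Eci1 had 1543 to 4486 in the tumours, against 1326 in TRF2DBDM liver and 782 in GFP liver. Acaa1b had 4658 to 8906 in the tumours, against 4151 in TRF2DBDM liver and 1679 in GFP liver. For Eci1 and Acaa1b the distance from the lowest tumour to TRF2DBDM liver was small beside the range of the tumours, while Acads stood well clear. The lowest rescaled tumour of Etfdh was nearly tied with TRF2DBDM liver, at 396 against 394, and that of Etfa was at 973 against 910.

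Below both livers under rescaling and quantile normalization, but not as scaled by the authors, were 5 members, Slc25a20, Cpt2, Etfb, Plin2 and Pdk4, beside 16.3% of all genes. Plin2 had rescaled signals of 4184 to 7529 in the tumours, against 12291 in TRF2DBDM liver and 12347 in GFP liver. Etfb had 2049.9 to 5121 in the tumours, against 12239 in TRF2DBDM liver and 5909.7 in GFP liver. As scaled by the authors these 5 members overlapped with at least 1 liver, so their separation from both livers depends on the scaling. The mean log2 difference of tumours over livers, as scaled, was -0.26 for Slc25a20, 0.00 for Cpt2, -0.48 for Etfb, -0.14 for Plin2 and -0.48 for Pdk4.

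**Figure D4:**
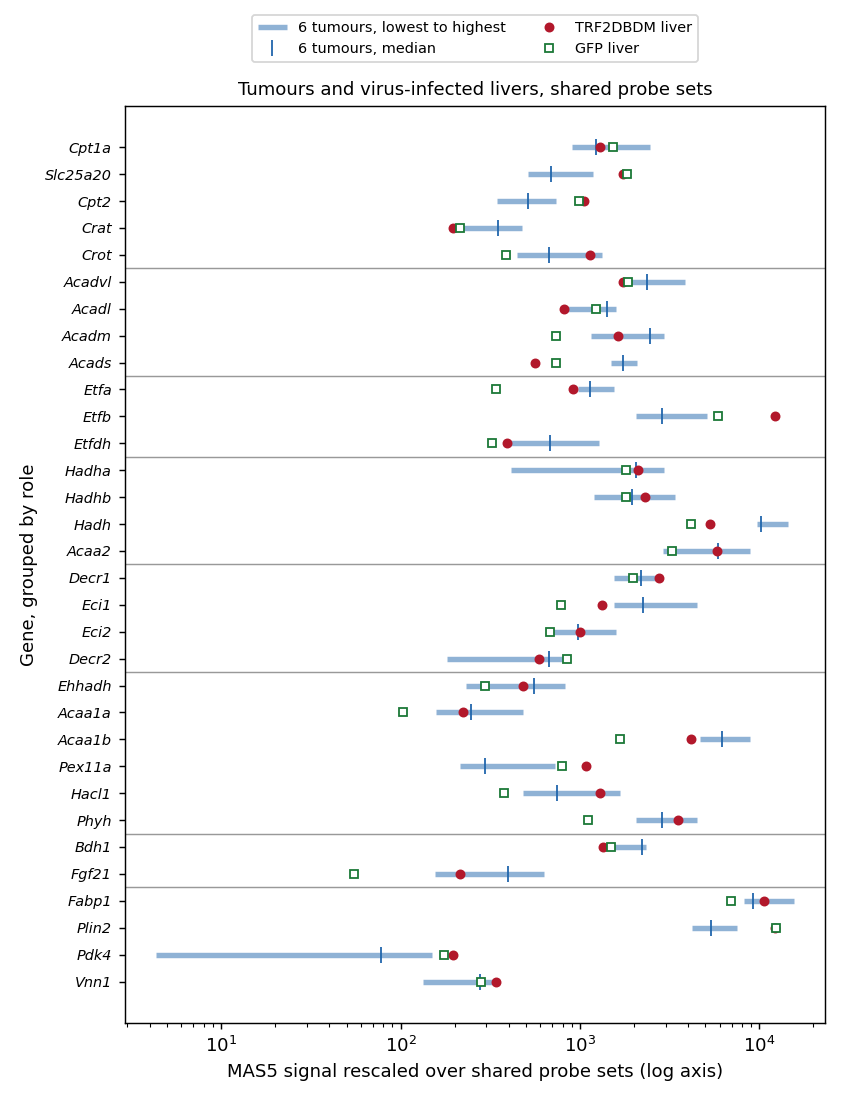
Signals on the shared probe sets after rescaling every array to a common trimmed mean (log axis), with a bar from the lowest to the highest of the 6 tumours, a tick at their median, and points for TRF2DBDM liver (filled circles) and GFP liver (open squares), genes in rows grouped by role. Acads, Hadh and Eci1 lie to the right of both livers and Plin2, Etfb and Slc25a20 to the left, while most members overlap.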

How the data were processed

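Total RNA was hybridised as biotin-labelled cRNA from 6 microg per array, per the labels' protocols. The deposited value of each probe set is the MAS5 signal intensity on a linear scale, as the authors gave it, per the submitters' processing notes. Its software version was not given in the sources used here. On every array the mean signal was 150 once the lowest and highest 2% were removed, and no further scaling was applied. The tables hold 45101 and 22690 probe sets, of which 34958 and 20393 have a single gene symbol in the platform annotation.

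Each gene took its probe set with the highest mean level of log2(signal + 32). Genes at or above the median level of all probe sets were kept (all 32 measured members passed), and the tumour groups, 3 against 3, were tested in limma (3.58.1, under R 4.3.3) with a trended variance, two-sided, at a Benjamini-Hochberg adjusted p below 0.05 over all genes. The p-values measure the spread between these tumours. This step was tested on simulated data with known changes. For the adenovirus pair, a gene entered if either array reached its own median, and ratios of 2 or more were counted. Named are all members in order of role, and up to 6 genes of each further list. Values per array follow by rule for members whose tumour groups do not overlap or whose adenovirus ratio reached 2, and other members shown per array were chosen after their values were seen. The members and lists were chosen with earlier results of these data known. Alternatives were other normalizations, pseudocounts, filters, probe set rules, the variance trend, array weights and each tumour left out. Terc, Trp53 and the virus constructs were not analysed here.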

Additional observations from a re-analysis of the deposited data

How the results depend on the processing

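The count of members past the threshold was 0 in limma under all 16 alternatives, all probe sets included, with 0 to 3 members at an unadjusted p below 0.05. The count of all genes past the threshold, 1 in the analysis reported, was 0 with median centring, pseudocount 1, the filter at percentile 75, the mean of probe sets and no variance trend, and it ran from 0 to 6 when a tumour was left out. The members' median log2 difference was -0.17 to 0.12 over the fits that left out 1 tumour. Array weights gave 0.02, leaving out mTERC- tumour 2 gave 0.09 and leaving out mTERC+ tumour 1 gave 0.12, against -0.06, so its sign is not settled. Pdk4 ran from 1.11 to 2.79 and Acaa1b from -0.55 to -0.25, with no change of sign. Pdk4 did not reach the filter at percentile 75. In the adenovirus pair 6 to 8 members reached a ratio of 2 with TRF2DBDM under the alternatives and 0 reached 2 with GFP, and the median log2 ratio was 0.16 with median centring, which moved the median of all genes to -0.13. The members above both livers in all tumours, 18 as scaled, were 6 after rescaling and 7 after quantile normalization, which change the scale between the array types. No paired analysis was possible because the labels give no pairing of tumours.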

Other observations

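Pairs of members followed each other across the 6 tumours to different degrees, given here as Pearson r without a test, over arrays that share scaling and RNA quality. Acads and Hadhb had an r of 0.98, and 0.94 without mTERC- tumour 2. Etfb and Acaa2 had 0.89 and, without that tumour, 0.88. Acadm and Hadha had 0.96, and 0.42 without it, and Acadm and Bdh1 had 0.90 and 0.02. Hadh, on its brightest probe set, and Plin2 ran opposite to each other, at -0.95 and, without that tumour, -0.88. Another Hadh probe set was lowest in mTERC- tumour 2, at 2506.6, as Plin2 was, at 4370.9. The opposite course of Hadh and Plin2 is therefore given for the brightest Hadh probe set only. These pairs were chosen for their values.

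The probe sets that the annotation gives to both Acaa1a and Acaa1b had higher signals with TRF2DBDM, at 2091.1 in TRF2DBDM liver and 1119.8 in GFP liver on the brighter. In the tumours that probe set had 2158.8, 1670.2 and 1483.8 in mTERC- tumours 1, 2 and 3, against 3070.1, 2091.9 and 1899.8 in mTERC+ tumours, so the groups overlapped.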
